A study of Homo sapiens with 9 samples.

Results

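The genes described here are the kinesins, cyclins, kinetochore and other mitotic genes found by symbol: the KIF, CENP, CDCA, BUB, AURK, NEK, SKA and SGO families, the A- and B-type cyclins, the polo-like kinases and a few single genes such as PRC1, MKI67 and TOP2A. The symbols matched 103 of the 14884 genes with a named probe set. Of these, 101 were among the 12155 genes tested, which had a log2 intensity of at least 5 on 3 or more of 9 arrays. The other two, KIF6 and NEK5, were under that floor on all arrays (3.63 to 4.43 and 3.68 to 4.03), and KIF27 lay just inside it with 4 arrays at or above 5. The tested genes were split by role into 8 mitotic classes with 62 genes, 9 NEK kinases, 28 other kinesins as the contrast, and 2 other matches, the pseudogene CENPBD2P and the antisense RNA KIF9-AS1. The condensin genes of the NCAP family, CENPE, CENPF, NUF2, SPC24, SPC25, TPX2 and ANLN were not analysed here, for want of a named probe set.

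The arrays measured total RNA from EA.hy926, an established human line made by fusing umbilical vein endothelial cells with the A549 lung carcinoma line, so it carries a tumour line's cell cycle and is a limited model of resting endothelium. There were 3 arrays of cells given 5 nm silver nanoparticles, 3 of cells given 100 nm silver nanoparticles and 3 of unexposed control cells. Exposure lasted 6 h at about the LD50, the median lethal dose, with no mass dose in the labels. Whether replicates 1, 2 and 3 were separate cultures is not stated, so a p-value here weighs a difference against the spread between arrays, which may be technical. The 3 markers of dividing cells, MKI67, CCNA2 and PRC1, were above the floor on every array. Of 14 endothelial markers 10 had a named probe set, and all 10 were above the floor. Fewer dividing cells and less RNA of a gene per dividing cell cannot be told apart in such bulk RNA.

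Cells that enter mitosis build up cyclins A and B, which activate CDK1, and with it the aurora, polo-like and BUB kinases. Kinesins are motors that walk on or take apart microtubules. The mitotic ones build the spindle, move chromosomes and split the cell, while others carry organelles, vesicles and cilium parts. CENP proteins mark the centromere and hold the kinetochore, to which NDC80, SKA and their partners fasten microtubules. Most of these genes are transcribed late in the cell cycle, through promoters that often carry a CHR element, bound by the MuvB complex through LIN54, and CCAAT boxes, bound by the factor NF-Y.

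The promoters held that pattern. RefSeq promoter windows of 300 bases on GRCh38.p14 (250 before to 50 after the first listed start) were matched for 86 of the 103 genes, and were searched on both strands for the CHR letters TTTGAA or TTCGAA and for the box CCAAT, with any overlapping matches kept. In the mitotic classes 34 of 55 promoters (61.8%) held a CHR match, against 11.8% of the 9178 tested genes with a promoter and 16.6% of all 27305 promoters. A CCAAT match was found in 67.3% of the mitotic class promoters, 35.9% of those of tested genes and 35.7% of all promoters. Both were found in 47.3%, 5.02% and 6.58% of the same sets. The split between kinesins was wider: 11 of 13 mitotic kinesins (84.6%) held a CHR match, against 2 of 20 other kinesins (10%), namely KIF24 and KIF5B. A CCAAT match was held by 84.6% of the mitotic kinesins and by 25% of the others. With any listed start of a gene allowed, an alternative added after the data were seen, the CHR shares were 61.8% in the mitotic classes and 15.7% over tested genes. A match is a run of letters and not a measured binding site.

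The stretches from position -130 to 20 around the start (position 1) of 4 genes show the pattern, with the motif matches in capitals. CCNB2 (chr15:59105016-59105165, + strand), PLK1 (chr16:23678759-23678908, + strand) and KIF18B (chr17:44947754-44947903, - strand) stand for the cyclins, the kinases and the mitotic kinesins. KIF5B (chr10:32056406-32056555, - strand), the conventional cargo kinesin, is the contrast by role. Its full window of 300 bases held both a CHR and a CCAAT match, as in only 2 of 20 other kinesins (10%).
CCNB2: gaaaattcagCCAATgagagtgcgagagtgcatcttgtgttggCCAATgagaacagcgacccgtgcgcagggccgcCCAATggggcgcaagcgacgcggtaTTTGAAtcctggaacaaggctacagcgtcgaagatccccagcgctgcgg
PLK1: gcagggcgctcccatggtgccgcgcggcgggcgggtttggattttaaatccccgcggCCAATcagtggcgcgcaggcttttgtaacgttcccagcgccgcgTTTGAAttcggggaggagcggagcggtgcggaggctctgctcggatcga
KIF18B: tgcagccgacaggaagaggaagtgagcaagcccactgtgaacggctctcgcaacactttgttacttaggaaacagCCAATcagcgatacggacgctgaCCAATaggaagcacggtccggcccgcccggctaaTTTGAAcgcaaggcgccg
KIF5B: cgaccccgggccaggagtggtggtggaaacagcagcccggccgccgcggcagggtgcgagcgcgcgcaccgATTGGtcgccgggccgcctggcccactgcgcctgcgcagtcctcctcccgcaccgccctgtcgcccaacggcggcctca
In CCNB2 the CCAAT matches began at -120, -87 and -54 and the CHR match at -29. In PLK1 they began at -73 and -29, and in KIF18B at -55, -32 and, for the CHR match, 3. The stretch of KIF5B held 1 CCAAT match, on the opposite strand at -59, and its CHR match lay outside the stretch.

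**Figure D1:**
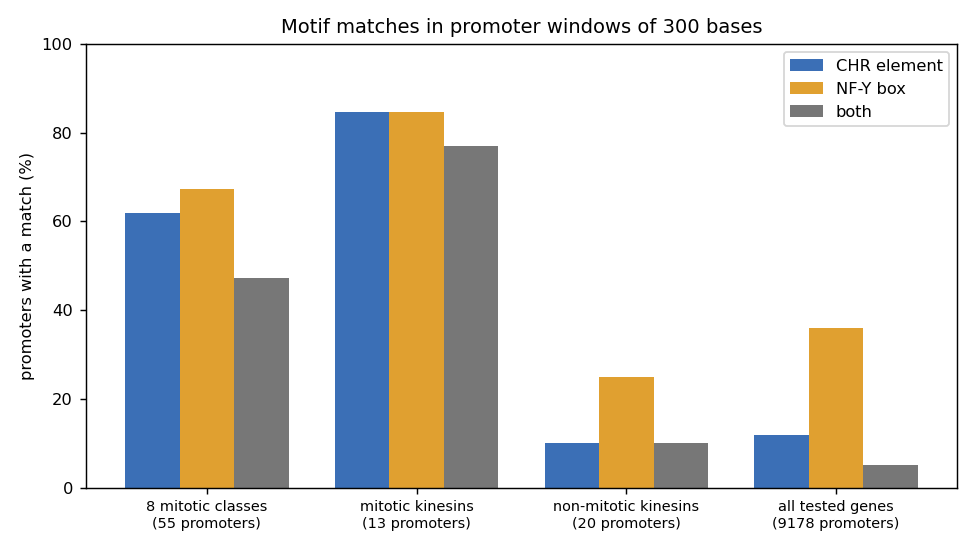
Bars give the percent of promoter windows with a CHR element, a CCAAT box (NF-Y box) or both, for the 8 mitotic classes, the mitotic kinesins, the other kinesins and all tested genes. The CHR bars stand at 61.8% and 84.6% for the mitotic classes and mitotic kinesins, against 10% for other kinesins and 11.8% for all tested genes.

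The first comparison asked how the mitotic genes differed between cells given 5 nm particles and control cells. Most of them were lower after 5 nm particles in each replicate number, and the median of each mitotic class was below 0. The median log2 difference over the 62 mitotic genes was -0.31 (range -0.96 to 0.04), against 0 over all tested genes, with 58 genes below 0 and 2 above. In 43 of 62 genes (69.4%) the 5 nm array was below the control array of its own number in all 3 numbers, against 13.4% of all tested genes. None of the 62 passed in limma with group means (adjusted p under 0.05), where 0.0% of all tested genes passed as lower, and 2 of them (3.23%), CCNA2 and MKI67, had an unadjusted p under 0.05, against 1.65% of tested genes. The replicate numbers pair the arrays, and with the number as a block 4 of 62 passed as lower (PRC1, SKA2, CDKN3 and KIF4B), against 0.354% of all tested genes, and 35 (56.5%) had an unadjusted p under 0.05, against 14.3% of tested genes. No gene of the 62 had every 5 nm array below every control array, against 0.469% of tested genes, and levels also differed between numbers within each group.

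Of the 4 cyclins tested, which switch on CDK1, 3 were lower in all 3 numbers, with a class median of -0.56. CCNA2, cyclin A2 of S phase and mitotic entry, had log2 intensities of 10.95, 9.65 and 10.17 after 5 nm particles in replicates 1, 2 and 3, 11.63, 11.11 and 10.62 after 100 nm particles, and 11.65, 11.10 and 10.69 in control cells. Within each number the 5 nm array was the lowest, while the 100 nm and control arrays lay within 0.07 of each other. The CCNA2 difference of -0.89 (95% interval -1.73 to -0.04, n = 3 each) put the 5 nm level at 54.1% of the control level, with adjusted p = 1 in limma, and adjusted p = 0.21 with the block.

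The B-type cyclins, which drive entry into and exit from mitosis, were lower by less. CCNB2 had log2 intensities of 10.10, 10.10 and 9.76 after 5 nm particles, 10.53, 10.89 and 10.09 after 100 nm particles, and 10.63, 10.94 and 10.09 in control cells. CCNB1 had 9.15, 8.07 and 8.45 after 5 nm particles, 9.72, 9.15 and 8.45 after 100 nm particles, and 9.68, 9.15 and 8.50 in control cells. Both were below control in every number, but the CCNB1 difference was -1.08 in replicate 2 and only -0.05 in replicate 3. CCNB3, a cyclin known mainly from meiosis, did not share the direction, with differences of 0.00, 0.09 and 0.03 in the 3 numbers.

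MKI67, the proliferation marker that coats mitotic chromosomes, had log2 intensities of 10.30, 9.33 and 9.83 after 5 nm particles, 11.00, 10.74 and 10.13 after 100 nm particles, and 10.94, 10.69 and 10.22 in control cells. Its difference of -0.80 (95% interval -1.51 to -0.09, adjusted p = 1 in limma) was carried by all 3 numbers (-0.64, -1.36 and -0.39). TOP2A, the topoisomerase that untangles sister chromatids, differed by -0.55, -1.05 and -0.35. These were the 2 genes of chromosome structure that could be tested.

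**Figure D2:**
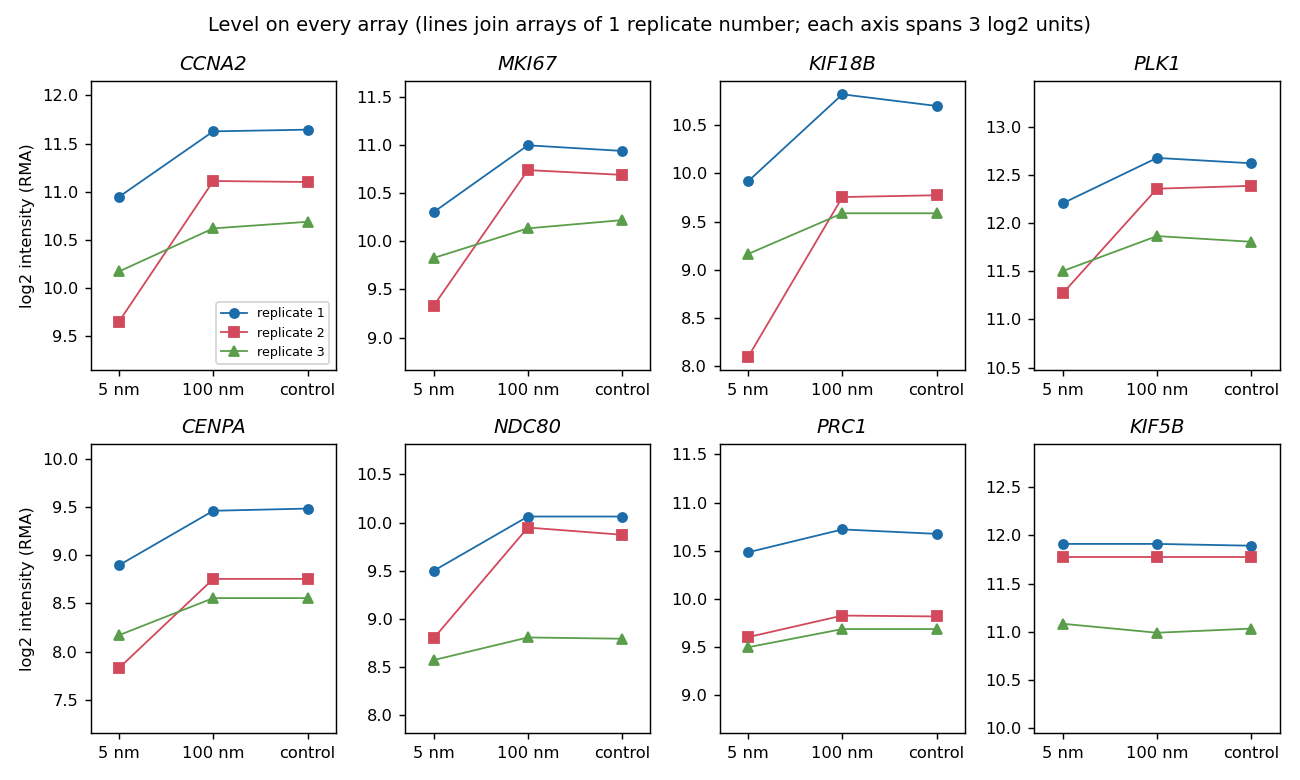
Log2 intensity (RMA) of 8 genes on every array, with groups in the order 5 nm, 100 nm and control along the x axis and lines joining arrays of 1 replicate number. The 5 nm points of CCNA2, MKI67, KIF18B, PLK1, CENPA and NDC80 lie lowest on each line and drop furthest in replicate 2, the lines of PRC1 run in parallel with a small step, and those of KIF5B are level.

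Among the 12 mitotic and checkpoint kinases and their partners the median difference was -0.45, and 8 were lower in all 3 numbers. AURKB, the aurora kinase of the chromosomal passenger complex, had log2 intensities of 11.35, 10.26 and 10.60 after 5 nm particles, 11.84, 11.40 and 11.04 after 100 nm particles, and 11.86, 11.29 and 11.04 in control cells. PLK1, the polo-like kinase that matures centrosomes and kinetochores, had 12.21, 11.27 and 11.50 after 5 nm particles, 12.68, 12.36 and 11.87 after 100 nm particles, and 12.62, 12.39 and 11.81 in control cells. Every 5 nm value of both was below its control, by 0.30 to 1.12 log2 units. The checkpoint kinase BUB1, which holds anaphase until chromosomes are attached, differed by -0.46, -0.70 and -0.17.

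CDKN3, a phosphatase that acts on cyclin-dependent kinases, differed more evenly. It had log2 intensities of 9.66, 8.81 and 8.15 after 5 nm particles, 10.21, 9.42 and 8.54 after 100 nm particles, and 10.30, 9.44 and 8.63 in control cells. The difference of -0.58 (95% interval -0.70 to -0.46 with the block) passed in the blocked limma fit, with adjusted p = 0.0323, and not without the block, with adjusted p = 1. At the other end, BUB3, a checkpoint protein, differed by -0.03, AURKC, an aurora kinase known from germ cells, by 0.00, and PLK3, a polo-like kinase known from stress responses, by 0.04.

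The mitotic kinesins had a median of -0.50 over 13 genes, with all 13 means below 0 and 10 genes lower in all 3 numbers. KIF18B, which shortens astral microtubules, had log2 intensities of 9.92, 8.10 and 9.16 after 5 nm particles, 10.82, 9.76 and 9.59 after 100 nm particles, and 10.70, 9.77 and 9.59 in control cells. Its difference of -0.96 (95% interval -2.04 to 0.12, adjusted p = 1 in limma) was the most negative of the 62 genes. In replicate 2 the 5 nm level of KIF18B was 31.3% of control, against 58.2% in replicate 1 and 74.6% in replicate 3.

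KIF20A, a motor of the spindle midzone needed for cytokinesis, differed by -0.58, -1.19 and -0.37. KIF11, the motor that pushes the spindle poles apart, differed by -0.43, -0.83 and -0.22. KIF23, part of the centralspindlin complex, differed by -0.65 and -1.24 in replicates 1 and 2 and by 0.00 in replicate 3. KIF14, a cytokinesis motor, and KIF2C, which takes apart microtubules at centromeres, were the least different, at -0.06 and -0.08.

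KIF4B, a close copy of the chromosome motor KIF4A, was the mitotic kinesin that passed with the block. It had log2 intensities of 8.52, 7.47 and 7.07 after 5 nm particles, 8.80, 7.89 and 7.55 after 100 nm particles, and 8.96, 7.89 and 7.55 in control cells. The KIF4B difference was -0.44 (blocked limma adjusted p = 0.0467), and that of KIF4A was -0.30 (adjusted p = 0.288). The copies are near-identical in sequence, so which of them a probe set reads is uncertain.

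The 28 other kinesins, most of them motors of transport and cilia, did not share the pattern. Their median difference was 0.00 (range -0.26 to 0.34). In all 3 numbers 2 of 28 (7.14%) were lower, against 13.4% of all tested genes, and 2 were higher. Of their 84 differences 59.5% were exactly 0, against 15.1% for the 62 mitotic genes and 47.0% over all tested genes. A difference of 0 counts as neither lower nor higher, so these ties bear on both the median and the counts. The floor of 5 lay below every array median (5.15 to 5.64), so some of these kinesins may read near background. The mitotic and other kinesins were not matched for level, and the part of level in the contrast was not tested. Without replicate 1, 5 of 28 were lower in both remaining numbers, against 16.6% of all tested genes. KIF5B, the conventional cargo kinesin, had log2 intensities of 11.91, 11.78 and 11.08 after 5 nm particles, 11.91, 11.78 and 10.99 after 100 nm particles, and 11.89, 11.78 and 11.03 in control cells. The groups of KIF5B lay within 0.09 of each other in every number. The contrast also holds KIF2A and KIF2B, which are known to take apart spindle microtubules in mitosis as well, and they differed by -0.01 and -0.06.

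Those lower in all 3 numbers were KIF24, a motor that restrains cilium formation, at -0.17, -0.60 and -0.01, and KIF16B, an endosome motor, at -0.18, -0.12 and -0.04. Those higher in all 3 were KIF1B, which carries mitochondria and synaptic vesicle precursors, and KIF21A, a motor that tempers microtubule growth. These 2 of 28 stand beside 976 of all 12155 tested genes that were higher in all 3. KIF1B had log2 intensities of 8.40, 8.18 and 7.91 after 5 nm particles, 8.05, 7.74 and 7.68 after 100 nm particles, and 8.05, 7.76 and 7.68 in control cells. Its 5 nm array was above both others in each number, and the difference of 0.34 did not pass (adjusted p = 1 in limma, and adjusted p = 0.083 with the block).

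**Figure D3:**
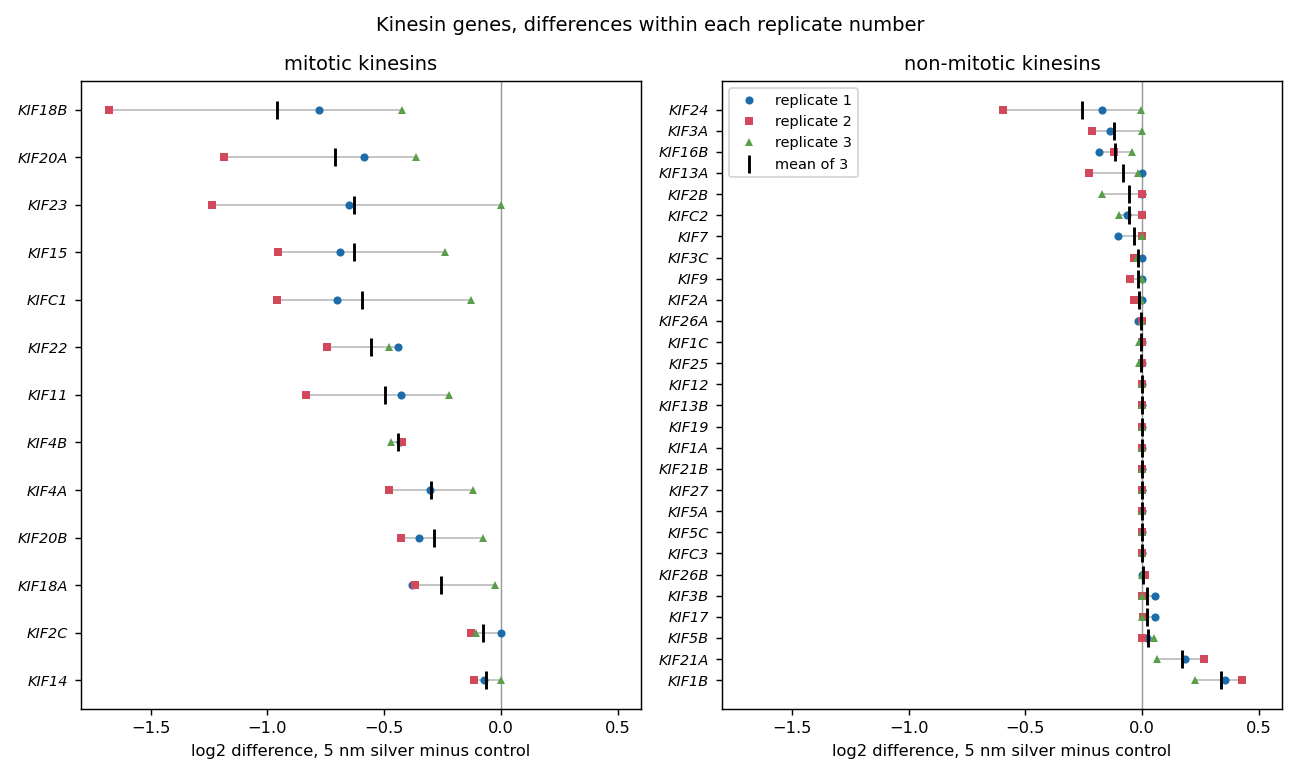
Log2 difference of 5 nm silver minus control within each replicate number, for the 13 mitotic kinesins (left) and the 28 other kinesins (right), with the mean of 3 as a black tick. The mitotic kinesins lie at or below 0 in every number, most of them furthest in replicate 2, while most of the others lie at 0 and KIF1B lies above it.

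The class of cytokinesis genes other than kinesins held 2 tested genes, PRC1 and ECT2, with a median of -0.25. PRC1, which bundles the microtubules of the spindle midzone, had log2 intensities of 10.48, 9.60 and 9.50 after 5 nm particles, 10.72, 9.83 and 9.69 after 100 nm particles, and 10.68, 9.82 and 9.69 in control cells. Its differences of -0.19, -0.21 and -0.19 were almost equal, which gave it the smallest p of the 62 genes with the block (difference -0.20, 95% interval -0.23 to -0.17, blocked limma adjusted p = 0.0237) while the 5 nm level was 87.2% of the control level. ECT2, which switches on the contractile ring, differed by -0.39, -0.54 and 0.00.

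The CDCA genes, named for their association with the cell division cycle, had a median of -0.49, and 6 of 7 were lower in all 3 numbers. CDCA2, which directs a phosphatase to chromatin, differed by -0.78, -1.26 and -0.27. CDCA8, the borealin subunit of the passenger complex, differed by -0.70, -0.93 and -0.33, and CDCA3, a mitotic entry factor, by -0.56, -0.90 and -0.34. CDCA5, sororin, which protects cohesion, was the exception at 0.00, 0.00 and -0.07.

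At the centromere the differences were smaller and more mixed, with a median of -0.19 over 16 CENP genes and 9 of 16 lower in all 3 numbers. CENPA, the histone H3 variant that marks the centromere, had log2 intensities of 8.90, 7.83 and 8.17 after 5 nm particles, 9.46, 8.75 and 8.56 after 100 nm particles, and 9.48, 8.75 and 8.56 in control cells. It was below control by 0.38 to 0.92 log2 units. CENPI, of the inner kinetochore, differed by -0.45, -0.88 and 0.00, and CENPX, which binds DNA with its histone-fold partner, by -0.15, -0.53 and -0.36. CENPO, also of the inner kinetochore, had a difference of 0.00 in each number.

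The outer kinetochore and cohesin protectors had a median of -0.30, and 4 of 6 were lower in all 3 numbers. NDC80, which grips microtubule ends, had log2 intensities of 9.50, 8.80 and 8.57 after 5 nm particles, 10.06, 9.95 and 8.81 after 100 nm particles, and 10.06, 9.87 and 8.79 in control cells. SKA3, of the complex that tracks the ends with NDC80, differed by -0.61, -1.18 and -0.17, and SGO1, the shugoshin that guards centromeric cohesion, by -0.18, -0.65 and -0.14. SGO2, its relative, differed by -0.05.

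SKA2, another subunit of the SKA complex, differed by an even step. It had log2 intensities of 9.51, 8.75 and 8.47 after 5 nm particles, 9.79, 9.08 and 8.81 after 100 nm particles, and 9.78, 9.01 and 8.81 in control cells. The SKA2 difference of -0.29 (95% interval -0.34 to -0.23 with the block) had a blocked limma adjusted p of 0.0285.

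The blocked calls depended on which arrays were in the fit. With 1 array left out in turn, 0 to 11 of the members passed in the blocked fit: none without control replicate 1, 2 or 3 or 100 nm replicate 2 or 3, 1 without 100 nm replicate 1, 2 without 5 nm replicate 1, 6 without 5 nm replicate 2, and 11 without 5 nm replicate 3, with KIF1B and KIF21A among these 11 as higher. Over all 12155 tested genes the same fits called 2 to 11 without a control array, 11 to 13 without a 100 nm array, and 131, 326 and 446 without 5 nm replicate 1, 2 and 3. The blocked adjusted p over these fits ran from 0.0227 to 0.174 for PRC1 and from 0.0068 to 0.226 for CDKN3. With only the 2 groups compared and the block, none passed.

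The NEK kinases, of which only some act in mitosis, had a median of -0.09 over 9 genes. In all 3 numbers 2 of 9 were lower, against 13.4% of all tested genes, and so few genes cannot be told apart from that share. Those were NEK2, the centrosome kinase of G2 and mitosis, at -0.26, -0.85 and -0.02, and NEK6, a kinase of the mitotic spindle, at -0.16, -0.33 and -0.05. NEK3 and NEK10, which are not mainly mitotic, differed by -0.12 and 0.03. The remaining NEK kinases, NEK9 among them, were not lower in all 3 numbers, and a link between role and difference was not tested. The other matches, CENPBD2P and KIF9-AS1, differed by -0.01 and 0.00.

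**Figure D4:**
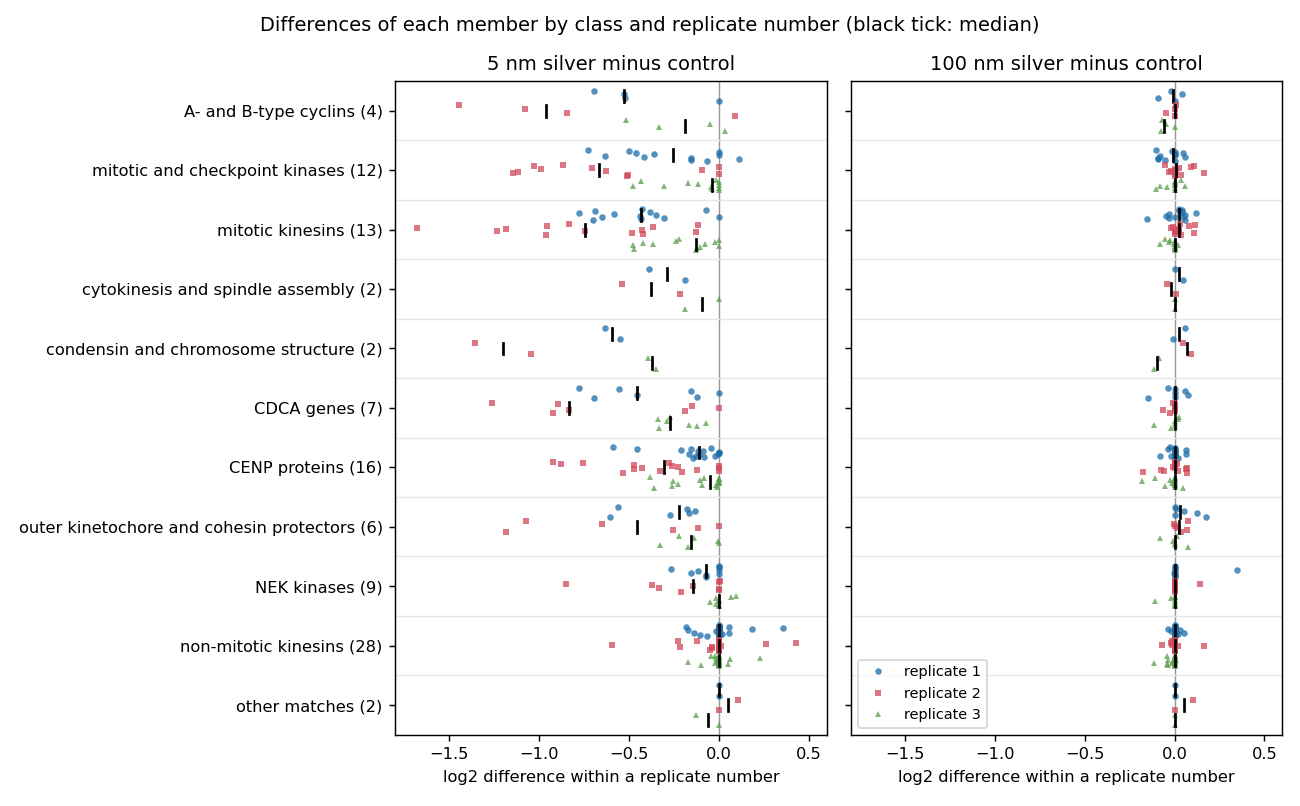
Log2 difference within a replicate number for every tested member, by class (number of genes in brackets), for 5 nm minus control (left) and 100 nm minus control (right), with the median of each number as a black tick. On the left the medians of the mitotic classes lie below 0, furthest in replicate 2 and nearest in replicate 3, while on the right all classes lie around 0.

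The 3 replicate numbers differed in size more than in direction. Over the 62 mitotic genes the median of 5 nm minus control was -0.29 in replicate 1, -0.52 in replicate 2 and -0.12 in replicate 3. In replicate 2, 13 of the 62 (21.0%) were lower by at least 1 log2 unit, among them CCNA2, CCNB1, KIF20A, KIF23, AURKB and NDC80, against 1.18% of all tested genes. The count was 0 in replicates 1 and 3. Replicate 2 gave the most negative value for 48 of the 62 genes and replicate 3 the least negative for 44. The spread over all tested genes moved with this, with an SD of 0.213, 0.376 and 0.182 in replicates 1, 2 and 3, and its part in the result was not tested.

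Above-control values were rare in any number: of 186 differences 15.1% were exactly 0, against 47.0% over all tested genes, and 3 were above 0, namely CCNB3 in replicates 2 and 3 and PLK3 in replicate 1. The values of the 62 genes in replicates 1 and 2 correlated at Pearson's r = 0.849 across genes, those in 1 and 3 at 0.568, and those in 2 and 3 at 0.511, against 0.766, 0.655 and 0.619 over all 12155 tested genes. Genes are not independent replicates, and each number has its own 5 nm and control array. Leaving out replicate 1, 2 or 3, a check added after the data were seen, left 44, 45 or 51 of the 62 genes lower in both remaining numbers (71.0%, 72.6% and 82.3%), against 16.6%, 16.4% and 22.5% of all tested genes.

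Genes with a CHR match in the promoter differed by more than those without. The median difference was -0.47 over the 34 mitotic genes with a match and -0.24 over the 21 without, with overlapping ranges of -0.96 to 0.00 and -0.89 to 0.04. For the CCAAT box it was -0.44 over 37 genes and -0.17 over 18. CCNA2, with a CCAAT match but neither TTTGAA nor TTCGAA in its window, was among the most different genes. The letters thus did not separate the genes cleanly. Other forms of the CHR element were not searched, so a gene without a match, such as CCNA2, may still hold one. These splits were not tested.

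The second comparison asked how the same genes stood after 100 nm particles, and there they lay close to control in every number. The median over the 62 mitotic genes was 0.00 (range -0.06 to 0.09), with 27 genes below 0 and 29 above. Of the 186 differences 36.0% were exactly 0, against 61.4% over all tested genes, so ties bear on this median. Only CDCA8 and CDKN3 (3.23% of 62) were lower in all 3 numbers, by at most 0.15, against 1.41% of all tested genes. CENPX and SKA3 were higher in all 3, as were 152 of all 12155 tested genes. No member passed in either direction in limma, with or without the block, and 0.0% of all tested genes did. No gene of the 62 had an unadjusted p under 0.05 in either fit.

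With the block, the 95% interval of the 100 nm difference ran from -0.63 to 0.58 for CCNA2 and from -0.63 to 0.64 for MKI67, an interval whose spread is estimated over all 9 arrays, the uneven 5 nm ones included. The 100 nm differences within replicates 1, 2 and 3 were much closer together, at -0.02, 0.01 and -0.07 for CCNA2 and 0.06, 0.05 and -0.09 for MKI67. For PRC1 the interval ran from -0.01 to 0.05 and for SKA2 from -0.03 to 0.08. The mitotic kinesins had a median 100 nm difference of 0.00, as did the other kinesins.

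The third comparison set the particle sizes against each other, and it shares the 5 nm arrays with the first. The mitotic genes were mostly lower after 5 nm than after 100 nm particles. The median of 5 nm minus 100 nm was -0.30 over the 62 genes, 59 of them below 0, and 38 of 62 (61.3%) were lower in all 3 numbers, against 13.0% of all tested genes. Among kinesins 8 of 13 mitotic ones and 1 of 28 others were. None of the members passed in limma without the block, where 0.0% of tested genes passed as lower and CCNA2, MKI67 and SKA3 (4.84% of the 62) had an unadjusted p under 0.05, against 1.70% of tested genes. With the block 3 passed as lower, against 0.329% of tested genes: PRC1 (-0.22, limma adjusted p = 0.0241), SKA2 (-0.31, limma adjusted p = 0.0253) and CDKN3 (-0.52, limma adjusted p = 0.0425). With only these groups in the blocked fit none passed. With 1 array left out 0 to 12 members passed, and the blocked adjusted p reached 0.175 for PRC1, 0.206 for SKA2 and 0.233 for CDKN3. None passed without any 1 control array or without 100 nm replicate 2 or 3, 1 passed without 100 nm replicate 1, 3, 7 and 12 without 5 nm replicate 1, 2 and 3, and 7 to 449 of all tested genes passed in these fits.

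Other genes of the same phase, not matched by the symbols, mostly went the same way. Their list was chosen with earlier results of these data known. Of 52 listed G2 and M phase genes 38 were tested. Their median 5 nm minus control difference was -0.44, with 36 below 0 and none passing in either fit. In all 3 numbers 27 of the 38 were lower, against 13.4% of all tested genes. TROAP, a spindle protein, differed by -0.78, -1.78 and -0.62, HJURP, the chaperone that loads CENPA, by -0.45, -1.71 and -0.63, GTSE1, a microtubule-binding protein of G2, by -0.82, -1.34 and -0.47, and ESPL1, the separase that cuts cohesin, by -0.82, -1.09 and -0.50. CKS2, a small partner of CDK1, was the 1 gene of the list higher in all 3 numbers, at 0.19. MIS18A also lay above 0, at 0.02. Some genes lay near 0: UBE2S, SMC2, SMC4 and MAD1L1 differed by -0.10, -0.05, -0.03 and -0.02.

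The regulators of these promoters were mixed. Of 24 listed, 17 were tested, with a median of -0.07, and none passed in either fit. In all 3 numbers 7 were lower and 2 higher, against 13.4% of all tested genes lower and 976 of 12155 higher. E2F8, a repressor that peaks late in S phase, differed by -0.81, -2.12 and -0.48, FOXM1, an activator of G2 and M phase genes, by -0.32, -0.69 and -0.28, and E2F2, an activator of S phase genes, by -0.42, -0.56 and -0.19. LIN37, a subunit of MuvB, went the other way with 0.39, 0.88 and 0.03, as did LIN54, the subunit that binds the CHR element, with 0.26, 0.47 and 0.21.

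A list of 26 genes held G1 cyclins and kinases, with brakes of G1 and of other phases. Of these only 13 were tested, with a median of -0.14, and none passed in either fit. In all 3 numbers 4 were lower and 1 was higher, against 13.4% of all tested genes lower and 976 of 12155 higher. CCNG2, a cyclin of cell cycle exit, differed by 0.31, 0.80 and 0.11, while CCNG1, a p53 target, differed by -0.30, -0.76 and -0.14. CCNE1 and CDK2, the pair that starts S phase, differed by -0.30 and -0.28. CDKN1A lacked a named probe set and was not analysed here. After 100 nm particles the medians of these 3 lists were 0.00.

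Markers of cell types were compared in the same way. The 10 endothelial markers had a median 5 nm minus control difference of -0.15 (range -0.38 to 0.04). Of the 10, 7 were below 0 and 2 above, and 2 were lower in all 3 numbers, against 13.4% of all tested genes. These 2, also the most negative, were KDR, the receptor of VEGF (-0.70, -0.30 and -0.13), and ICAM2, an adhesion molecule (-0.15, -0.58 and -0.28). At the other end TIE1 and CLDN5 each differed by 0.04 and VWF by 0.00. The summed log2 level of the 10 was 84.5 to 89.9 after 5 nm particles, 86.2 to 91.1 after 100 nm particles and 86.1 to 91.5 in control cells. The 6 named markers of the epithelial A549 parent had a median of -0.06, with the keratins KRT8 (-0.49, -0.24 and -0.16) and KRT7 (-0.27, -0.39 and -0.31) lower in all 3 numbers. The rest of the 6, KRT18, SFTPB, KRT19 and EPCAM, differed by -0.10, -0.01, -0.01 and 0.00. Their sums were 42.0 to 46.9 after 5 nm particles, 42.4 to 47.6 after 100 nm particles and 42.7 to 47.8 in control cells. CD14, CD68 and LYZ, the 3 leukocyte markers of 6 with a probe set, had a median of -0.03 with sums of 22.6 to 24.2 after 5 nm particles, 22.8 to 24.3 after 100 nm particles and 22.8 to 24.1 in control cells. The fibroblast markers LUM and DCN were under the floor in all groups. The part of these shifts in the mitotic differences was not tested.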

How the data were processed

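Total RNA (300 ng per array) was hybridised to Affymetrix whole-transcript arrays. The authors deposited log2 intensities for 53617 probe sets, and the submitters' processing notes name RMA and Affymetrix Expression Console 1.3.1. Arrays of 1 replicate number held pairwise exactly equal values for 46.9% to 57.6% of probe sets, other pairs for at most 0.00373%, so many differences within a number are exactly 0. Whether each number was summarised on its own is not stated and was not tested. The platform annotation gave 16098 probe sets 1 symbol (none for 37519), updated through Entrez identifiers in RefSeq (16098 matched), and the brightest probe set stood for a gene.

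Groups were compared with limma 3.58.1 in R 4.3.3 (group means on all 9 arrays, Benjamini-Hochberg over 12155 genes, adjusted p under 0.05), with the replicate number as a block beside it. Both fits were run on simulated data with added differences. The simulated noise was independent, of equal spread in all groups and without equal values. It differs in this from the real arrays and cannot vouch for the blocked p-values. Pairs of arrays of 1 number had deviations from the group means with r of 0.762 to 0.967 (9 pairs), and other pairs of -0.582 to -0.265 (18 pairs), so the numbers pair the arrays. Array medians were 5.15 to 5.64, and 3 arrays per group limit the precision. Members and lists were chosen with earlier results of these data known. Genes named were, in each class, the 3 most negative and the least negative for 5 nm minus control, MKI67, CCNA2, PRC1, all that passed in either fit, the 2 brightest other kinesins, those beside the floor, and the 4 largest differences of each list. BUB1, BUB3, AURKC, KIF11, KIF2B, KIF2C, KIF4A, KIF21A, KDR, ICAM2, KRT7, KRT8, CKS2 and LIN54 were named after their values were seen. So were NEK9, TIE1, CLDN5, VWF, KRT18, KRT19, SFTPB, EPCAM, MIS18A, UBE2S, SMC2, SMC4 and MAD1L1. Alternatives were the block, 2 groups only, floors, probe set means, scalings, a variance trend and each array left out.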

Additional observations from a re-analysis of the deposited data

Results flagged for a closer look

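For 3 genes the 5 nm and 100 nm effects, which share the control arrays, differed in a test, and for 2 more they only had opposite directions. For PRC1 (5 nm minus 100 nm -0.22), CDKN3 (-0.52) and SKA2 (-0.31) the difference of effects passed in limma with the replicate number as a block, with adjusted p = 0.0241, 0.0425 and 0.0253, was below 0 in 3 of 3 numbers, and did not pass without the block. For SKA3 (-0.75) and CENPX (-0.39) every number was below control after 5 nm particles and above it after 100 nm particles, but the difference did not pass (blocked limma adjusted p = 0.255 and 0.177). After 100 nm particles SKA3 and CENPX lay above control by at most 0.18 and 0.07. None of these genes passed with only the 2 groups compared in the blocked fit.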

How the results depend on the processing

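For 5 nm minus control, 9 of all tested genes passed without the block, 79 with the replicate block, 0 with the replicate block and only the 2 groups compared, 15 with a floor of 6, 21 after quantile normalization of all arrays and 6 to 15 with 1 array left out. For 5 nm minus 100 nm the counts were 8, 75, 0, 15, 21 and 6 to 19. Of the members 0 passed without the block, and with the replicate block 4 (5 nm minus control) and 3 (5 nm minus 100 nm). Under each of the other alternatives 0 passed, apart from the blocked fits with 1 array left out. In the blocked fit, leaving out 1 array gave 2 to 446 of all tested genes and 0 to 11 members for 5 nm minus control, 7 to 449 and 0 to 12 for 5 nm minus 100 nm, and 0 to 1 of all tested genes for 100 nm minus control. The median over the mitotic genes lay between -0.32 and -0.28 under the alternatives that kept every array for 5 nm minus control. Leaving out 1 array without the block unbalances the numbers, and moved it to between -0.58 and -0.041 for 5 nm minus control, -0.58 and -0.076 for 5 nm minus 100 nm, and -0.24 and 0.24 for 100 nm minus control. With the block these ranges were -0.41 to -0.21, -0.40 to -0.21 and -0.064 to 0.051. Of 2259 values of named genes under alternatives other than the blocked fits with 1 array left out, 7 came to pass, all with the replicate block. In those blocked fits further named genes passed, among them AURKB, ECT2, KIF1B and PLK1. The precision was limited by 3 arrays per group, and many differences within a number were exactly 0.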
